A study of Homo sapiens with 10 samples.

Results

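The SERPINB cluster on chromosome 18q21 is a row of genes for clade B serpins, and it was examined as the stretch chr18:61100000-61680000 of the hg19 genome (580 kb), which covers SERPINB5, SERPINB3, SERPINB4, SERPINB7, SERPINB2 and SERPINB8. Its members are all ChIP-seq peaks with a summit in this stretch, 441 of the 879550 peaks in the 10 lists. Each summit was extended by 150 bp on each side, and overlapping windows were merged, which gave 104 sites in the stretch of 248897 sites in all. The start of SERPINB5 lies near position 61144144, that of SERPINB7 near 61420000 and that of SERPINB2 near 61555000, the last 2 being rounded positions. SERPINB3, SERPINB4 and SERPINB8 were not placed in hg19, and only their spacing in GRCh38 is used below.

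The peaks come from MCF10A-ER-Src cells, a single human breast epithelial line that carries an inducible oncogene, the Src tyrosine kinase fused to the hormone-binding part of the estrogen receptor. STAT3, NFKB1 (a subunit of NF-κB) and 3 members of the AP-1 family, FOS, JUN and JUNB, were each mapped in non-transformed cells, which the sample titles mark EtOH, and in cells transformed with 1 µM 4-hydroxy-tamoxifen for 12 h (TAM). The lists carry names with 36 h for the EtOH cells and 12 h for the TAM cells, so culture time and transformation cannot be told apart. Each protein and state has 1 library, so no difference between states has a replicate check, no test between states was possible, and every interval given covers counting error over sites only.

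Many clade B serpins are intracellular protease inhibitors, and many are expressed in stratified and squamous epithelia. SERPINB5 encodes maspin, a protein of mammary and other epithelial cells described as lost in many breast tumors, and SERPINB2 encodes plasminogen activator inhibitor 2, which inhibits urokinase. SERPINB3 and SERPINB4 encode the squamous cell carcinoma antigens, close paralogs that inhibit different classes of proteases, SERPINB7 encodes megsin, and SERPINB8 encodes an inhibitor of furin-like proteases. SERPINB12, SERPINB13, SERPINB11 and SERPINB10 lie among them, in the RefSeq order SERPINB5, SERPINB12, SERPINB13, SERPINB4, SERPINB3, SERPINB11, SERPINB7, SERPINB2, SERPINB10, SERPINB8. FOS binds DNA as a dimer with a JUN protein, STAT3 enters the nucleus after tyrosine phosphorylation, which Src and cytokine receptors can bring about, and NFKB1 acts in the inflammatory response.

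The sequences before the gene starts are shown first, since the sites at SERPINB5 and SERPINB2 described below lie next to those starts. RefSeq promoters (GRCh38.p14) were found for 8 of the 10 SERPINB genes, in 11 entries, and SERPINB11 and SERPINB10 had no entry. The 250 bases before each start were searched on both strands for the AP-1 motif TGANTCA, printed in capitals, for the STAT motif TTCNNNGAA, and for an NF-κB motif of GGG and TTNCC parted by any 2 bases. The motifs can share letters, but no matches of different motifs overlapped in these entries. The AP-1 motif stood in 7 of the 11 entries, from 6 of the 8 genes, and in 6.57% of all 35116 promoter entries of the same length. Its middle base was left free in this search. The matches at SERPINB5 and SERPINB2 both read TGAATCA, and neither entry held TGAGTCA or TGACTCA. A STAT match was found in 3 of the 11 entries (6.57% of all entries) and an NF-κB match in 1, the first of SERPINB7 (5.07%). A match is a description of the letters and not a binding site.
SERPINB5, chr18:63476708-63476957, plus strand, with the motif at -146 from the start: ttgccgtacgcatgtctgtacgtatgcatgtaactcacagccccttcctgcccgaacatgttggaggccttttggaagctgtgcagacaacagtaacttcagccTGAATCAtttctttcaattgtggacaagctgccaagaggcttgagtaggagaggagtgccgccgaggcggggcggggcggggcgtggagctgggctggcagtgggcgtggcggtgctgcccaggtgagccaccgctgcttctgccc
SERPINB2, chr18:63887455-63887704, plus strand, with the motif at -102: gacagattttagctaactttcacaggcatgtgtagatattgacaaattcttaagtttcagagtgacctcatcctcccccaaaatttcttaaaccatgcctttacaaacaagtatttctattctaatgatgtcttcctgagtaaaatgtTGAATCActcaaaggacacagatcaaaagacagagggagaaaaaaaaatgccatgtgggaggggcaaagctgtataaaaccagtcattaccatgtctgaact
SERPINB7, chr18:63752807-63753056, plus strand, the first of 3 starts, without an AP-1 match: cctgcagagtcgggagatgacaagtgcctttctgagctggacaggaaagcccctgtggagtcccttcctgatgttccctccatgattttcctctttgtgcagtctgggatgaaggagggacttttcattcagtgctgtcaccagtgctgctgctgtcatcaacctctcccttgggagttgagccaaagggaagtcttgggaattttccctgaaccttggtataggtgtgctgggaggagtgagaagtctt
SERPINB7, chr18:63775168-63775417, plus strand, the second start, with the motif at -154 and -39: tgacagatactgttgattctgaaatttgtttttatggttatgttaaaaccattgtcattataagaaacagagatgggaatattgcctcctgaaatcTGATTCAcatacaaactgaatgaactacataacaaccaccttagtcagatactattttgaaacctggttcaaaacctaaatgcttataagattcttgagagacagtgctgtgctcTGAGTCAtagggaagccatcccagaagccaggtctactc

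SERPINB3 and SERPINB4 are shown as a pair because their upstream sequences are almost identical, which bears on what short reads can tell. Of 250 bases, 247 were the same, and the 3 that differ are in capitals below. Of the 215 runs of 36 bases, the read length here, in the SERPINB3 sequence, 129 (60%) also occurred in that of SERPINB4. The lists rest on uniquely aligned reads, and a read from a shared run has more than 1 place in the genome. A lack of a peak there would thus not show a lack of binding. The starts of these genes were not placed in hg19. By their spacing from the SERPINB5 start in GRCh38, no site has its highest summit within 2 kb of either. The sites nearest to the SERPINB4 start, on its 2 sides, lie 164.3 and 170.2 kb after the SERPINB5 start. Those nearest to the SERPINB3 start lie 181.9 and 187.8 kb after the SERPINB5 start. Neither sequence held an AP-1 match.
SERPINB3, chr18:63661894-63662143, minus strand: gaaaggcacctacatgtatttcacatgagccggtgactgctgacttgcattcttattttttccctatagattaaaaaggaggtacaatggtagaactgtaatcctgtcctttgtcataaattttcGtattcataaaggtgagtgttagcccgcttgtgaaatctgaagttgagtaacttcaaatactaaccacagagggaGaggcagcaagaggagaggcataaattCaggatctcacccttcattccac
SERPINB4, chr18:63644257-63644506, minus strand: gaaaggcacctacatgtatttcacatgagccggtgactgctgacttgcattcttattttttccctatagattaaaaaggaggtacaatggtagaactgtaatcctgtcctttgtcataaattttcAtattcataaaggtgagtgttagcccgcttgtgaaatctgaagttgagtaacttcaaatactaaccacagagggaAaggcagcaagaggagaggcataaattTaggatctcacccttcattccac

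Every protein had more peaks in the cluster in transformed than in non-transformed cells. FOS had 54 peaks in non-transformed and 80 in transformed cells, JUN 33 and 62, and JUNB 32 and 48. NFKB1 went from 7 to 53 peaks and STAT3 from 14 to 58. The ratio of peak numbers between states was 4.14 for STAT3 in the cluster against 1.87 over the whole STAT3 lists, and 7.57 for NFKB1 against 5.57. For FOS, JUN and JUNB the ratios were 1.48, 1.88 and 1.5 in the cluster and 1.37, 1.56 and 1.34 over the whole lists.

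Depth moved with some of these counts. The transformed library held 2.0 times the filtered reads of the non-transformed library for NFKB1, 1.72 times for JUNB, 1.19 times for FOS and 1.16 times for JUN, and the part of depth in the counts was not tested. For STAT3 the transformed library was the shallower one, with 0.821 times the reads. The libraries held 4837474 (NFKB1, non-transformed) to 22082403 (FOS, transformed) filtered reads.

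In all 10 libraries the cluster held more peaks than 580 kb of the effective genome would hold at an even rate. In non-transformed cells the excess ran from 1.52 times (STAT3) to 2.46 times (NFKB1). In transformed cells it was 2.21 times for JUNB, 2.26 times for FOS, 2.27 times for JUN, 3.34 times for NFKB1 and 3.36 times for STAT3. The flanking 580 kb held 45 sites before the cluster and 21 after it, against 104 within it. STAT3 had 8 and 13 peaks in the flank before the cluster, in non-transformed and transformed cells, and 0 and 1 in the flank after it.

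**Figure D1:**
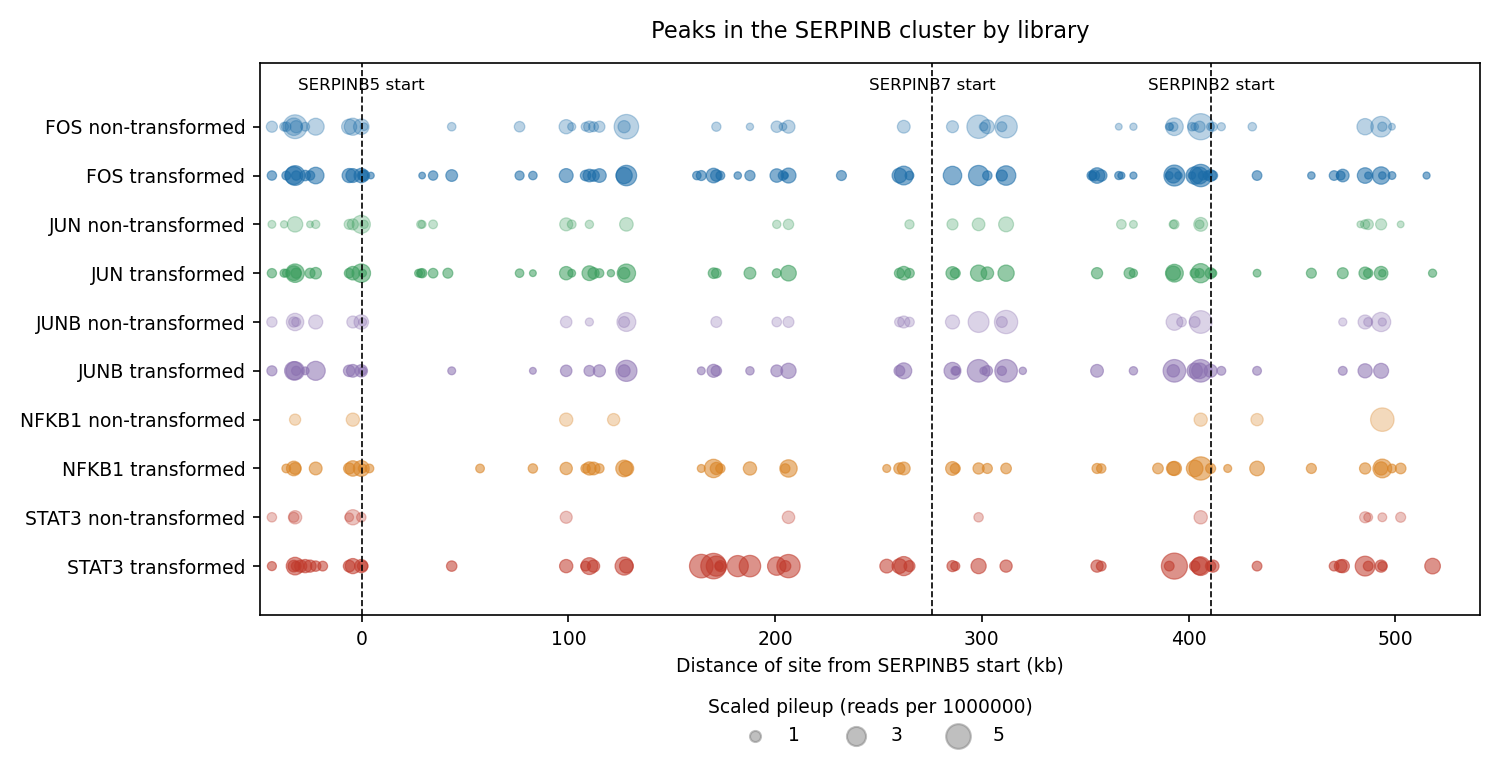
Peaks of the 10 libraries along the cluster, with the distance from the SERPINB5 start in kb on the x axis and the scaled pileup (reads per 1000000 filtered reads) as the area of each circle. Dashed lines mark the 3 gene starts used. The STAT3 row of transformed cells holds a run of large circles between the SERPINB5 and SERPINB7 starts, where 1 of 12 sites had a STAT3 peak in non-transformed cells.

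Sites were called gained where a protein had a peak in transformed cells only, and lost where it had one in non-transformed cells only. STAT3 stood apart from its series-wide share, with 43 of 57 STAT3 sites gained, or 75.4% (Wilson 95% interval 62.9 to 84.8%), against 53% of all 89030 STAT3 sites of the series. STAT3 lost 1 of 57 sites (1.75%, 0.310 to 9.29%), against 13.2% in the series. For both measures the series-wide share lay outside the interval of the cluster.

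The other proteins had shares of gained sites near those of the series. For NFKB1, 43 of 50 sites were gained (86.0%, 73.8 to 93.0%), against 82% of all NFKB1 sites. FOS gained 31 of 83 sites (37.3%, against 34.5% in the series), JUN 29 of 62 (46.8%, against 43.2%) and JUNB 20 of 51 (39.2%, against 37.3%). FOS lost 6 of its 83 sites (7.23%, against 10.7%), JUN 4 of 62 (6.45%, against 11.6%), JUNB 4 of 51 (7.84%, against 15.8%) and NFKB1 1 of 50 (2%, against 1.79%), and each series-wide share lay within the interval of the cluster. Sites that had peaks in non-transformed cells only, whatever the protein, numbered 5 of 104 (4.81%, 2.07 to 10.8%), against 15% in the series, and those with peaks in transformed cells only 37 (35.6%), against 34.6%. Neighbouring sites may not be independent, so the intervals can be too narrow.

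**Figure D2:**
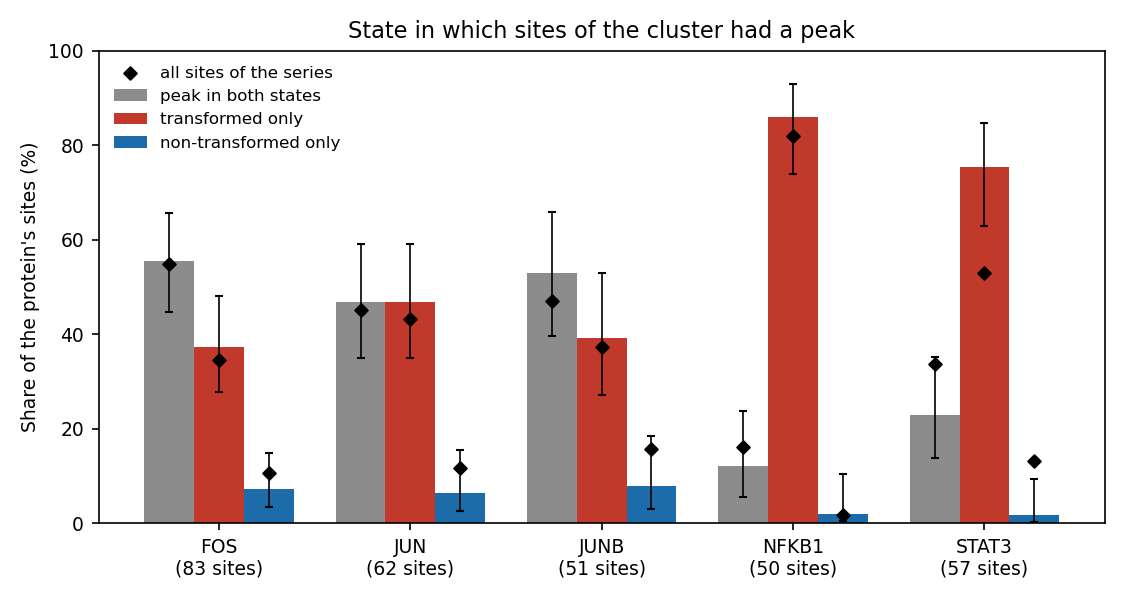
Share of each protein's sites in the cluster with a peak in both states (grey), in transformed cells only (red) or in non-transformed cells only (blue), in percent on the y axis, with Wilson 95% intervals as bars and the share over all sites of the series as diamonds. For STAT3 the diamonds of 53% and 13.2% lie outside the intervals of the gained and lost sites.

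Heights were compared as scaled pileup, the extended reads that cover a summit per 1000000 filtered reads of the library. Heights of different proteins come from different libraries, so an order of proteins at a site describes heights and not amounts of binding. In transformed cells the median over a whole list ran from 0.704 (JUN) to 1.23 (STAT3). Where a protein had a peak in both states, the ratio of the scaled pileups, transformed over non-transformed, was taken. Reads of STAT3 had been extended to 150 bp in non-transformed and 119 bp in transformed cells, against 114 to 135 bp for the other proteins, and the part of this in the ratios was not tested. The median ratio was 1.74 for STAT3 over 13 sites (0.914 to 3.48), against 1.71 over all such STAT3 sites of the series, and divided by that series median it was 1.02. For JUN it was 1.40 over 29 sites (0.773 to 3.75), against 1.29. FOS had a median of 1.17 over 46 sites (0.450 to 5.15), against 0.949, and JUNB one of 1.17 over 27 sites (0.604 to 3.21), against 0.964. NFKB1 had only 6 such sites, with a median of 1.23 (0.636 to 3.07), against 1.03.

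Few of these sites differed by 2-fold or more. FOS was at least 2-fold higher in transformed cells at 8 of 46 sites, where 8.54% of the FOS sites of the series were, JUN at 5 of 29 (14.8% in the series), JUNB at 2 of 27 (7.74%), NFKB1 at 1 of 6 (9.26%) and STAT3 at 3 of 13 (39.1%). Only 1 site was at least 2-fold lower, for FOS (5.99% in the series), and 0 sites were for JUN (0.807%), JUNB (7.02%), NFKB1 (5.92%) and STAT3 (0.978%).

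**Figure D3:**
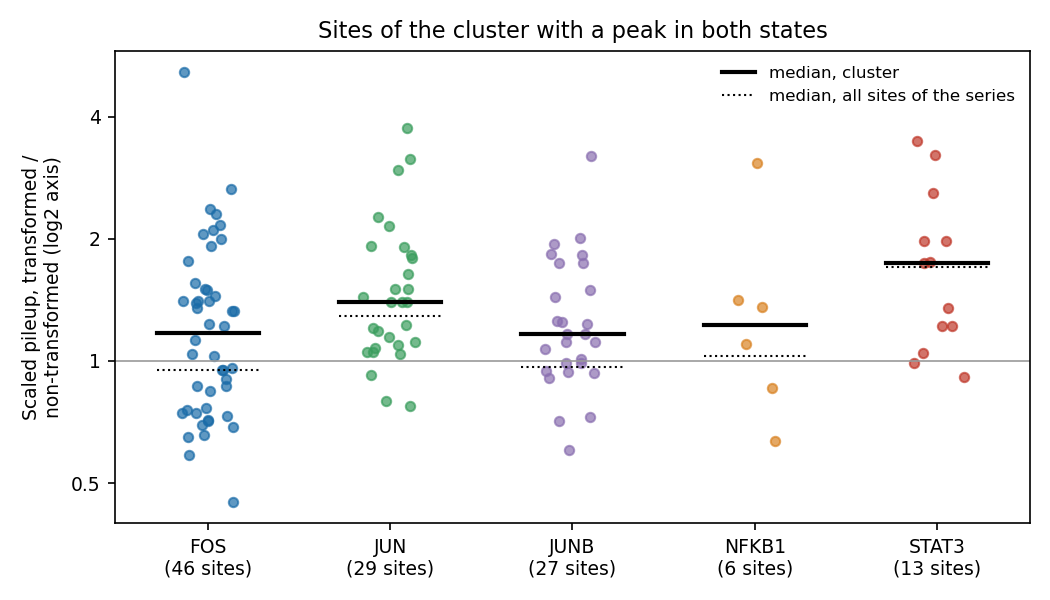
Ratio of scaled pileup in transformed over non-transformed cells, on a log2 axis, for each site of the cluster with a peak of that protein in both states. Solid lines are the medians in the cluster (1.17, 1.40, 1.17, 1.23 and 1.74 from left to right) and dotted lines the medians over all sites of the series.

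Peaks of the different proteins shared many sites. In transformed cells 28 of 104 sites carried peaks of all 5 proteins (26.9%, 19.3 to 36.2%), against 14.8% of all sites of the series. In non-transformed cells 4 sites did (3.85%, 1.51 to 9.47%, against 2.41%), and the same number had a peak in all 10 libraries (2.23% in the series). Sites with a peak in a single library numbered 28 as well (26.9%, against 38.7%). At the 19 sites with peaks in 8 or more libraries, the summits of the different libraries spread over a median of 82 bp (38 to 590 bp).

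Most STAT3 and NFKB1 sites of the cluster also had an AP-1 peak, that is, one of FOS, JUN or JUNB. An AP-1 peak in either state was present at 95 of the 104 sites (91.3%), the same share as over all sites of the series (91.3%). Of the 43 gained STAT3 sites, 27 (62.8%) already had an AP-1 peak in non-transformed cells and 39 (90.7%) had one in transformed cells, against 62.7% and 83.2% of the gained STAT3 sites of the series. Of the 43 gained NFKB1 sites, 29 (67.4%) and 37 (86.0%) did, against 73.6% and 84.7%. These shares were near those of the series.

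Heights of the AP-1 proteins followed each other across sites in both states. In transformed cells Spearman's rho between the scaled pileups of FOS and JUNB was 0.92 over the 42 sites with both peaks. For FOS and JUN it was 0.73 over 49 sites, and for JUN and JUNB 0.68 over 39. For FOS and STAT3 it was 0.45 over 50 sites, for JUN and STAT3 0.46 over 41 and for JUNB and STAT3 0.22 over 37. With NFKB1 it was 0.51 for FOS over 42 sites, 0.39 for JUN over 37, 0.42 for JUNB over 34 and 0.26 for STAT3 over 37. In non-transformed cells it was 0.80 for FOS and JUNB over 25 sites, 0.78 for FOS and JUN over 24 and 0.68 for JUN and JUNB over 19. With STAT3 it was 0.52 for FOS, 0.34 for JUN and 0.54 for JUNB, each over 12 sites. These are descriptions across sites, which share their libraries and the local mappability of reads.

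At the start of SERPINB5, the nearest site, chr18:61143789-61144166, had its highest summit 164 bp before the start and carried peaks in 9 of 10 libraries. FOS stood at 1.99 scaled pileup in non-transformed and 1.72 in transformed cells, JUN at 2.71 and 2.82, and JUNB at 1.74 and 1.27. STAT3 stood at 0.732 and 1.45, and NFKB1 had no peak in non-transformed cells and 2.07 in transformed cells. JUN was thus the highest of the 5 proteins here in both states, and its 2.71 was the highest JUN value of the cluster in non-transformed cells.

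Downstream of this site, within 2 kb of the start, lay 2 weaker sites. The site chr18:61144306-61144785 had peaks of all 5 proteins in transformed cells, at 0.860 (FOS), 0.488 (JUN), 0.508 (JUNB), 0.620 (NFKB1) and 0.892 (STAT3), and a JUNB peak of 0.545 in non-transformed cells. The site chr18:61144999-61145506 had FOS at 0.483 and 0.996 in the 2 states and JUN at 0.568 in non-transformed cells. Before the start, the 44.1 kb to the edge of the stretch were the part most dense in sites, with 14 sites or 31.7 per 100 kb. FOS had peaks at 11 of these 14 sites in each state, and STAT3 at 6 in non-transformed and 12 in transformed cells.

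Among those 14 were 2 of the 4 sites with a peak in every library. At chr18:61111789-61112159, 32.2 kb before the start, FOS stood at 4.67 in non-transformed and 3.22 in transformed cells, JUN at 1.96 and 2.82, JUNB at 2.51 and 2.79, NFKB1 at 1.03 and 1.14 and STAT3 at 1.46 and 2.56. At chr18:61139557-61140144, 4.24 kb before the start, the values were 2.42 and 1.58 for FOS, 1.01 and 1.52 for JUN, 1.20 and 1.33 for JUNB, 1.45 and 1.96 for NFKB1 and 1.92 and 1.90 for STAT3. This was the highest STAT3 peak of the cluster in non-transformed cells, and it was of like height in transformed cells.

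SERPINB7 had no site within 2 kb of the start used, which is nearest to the first of its 3 starts. The nearest one, chr18:61429807-61430169, had its highest summit 9957 bp after it, and the next one before the start was 10849 bp away. FOS stood at 1.18 in non-transformed and 2.81 in transformed cells at the nearest site, JUN at 1.01 and 1.41, JUNB at 1.63 and 2.35, and NFKB1 (1.55) and STAT3 (1.00) had peaks in transformed cells only. RefSeq lists 3 starts for this gene. In GRCh38 the first of them lies 276.1 kb after the SERPINB5 start, and the position used lies 275.9 kb after it in hg19, so by this spacing the position used is nearest to the first start. The other 2 starts lie 22.4 and 24.7 kb after the first in GRCh38. They lie 298.46 and 300.82 kb after the SERPINB5 start there, and neither was placed in hg19. In hg19, 2 sites have their highest summits 298.44 and 300.83 kb after the SERPINB5 start. These are 22.6 and 25.0 kb after the position used. The first, chr18:61442382-61442743, is one of the 10 strongest sites of the cluster and is described below. The second, chr18:61444823-61445152, chosen after its values were seen, had FOS at 0.591 in non-transformed cells and JUNB at 0.444 in transformed cells. By this spacing, 2 of the 3 SERPINB7 starts thus have a site next to them.

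At SERPINB2, the plasminogen activator inhibitor gene, the site nearest to the start, chr18:61554574-61555007, had a FOS peak of 0.537 in non-transformed cells and no other peak in that state. In transformed cells all 5 proteins had a peak there, FOS at 1.13, JUN at 0.975, JUNB at 1.40, NFKB1 at 0.827 and STAT3 at 0.892 scaled pileup. Its highest summit lay 180 bp before the rounded start. The other 2 sites within 2 kb were weaker in number of libraries: chr18:61553193-61553493 had a FOS peak of 0.634 in transformed cells alone, and chr18:61555751-61556084 had FOS at 0.644 and 0.725 with JUN (0.488) and STAT3 (1.23) in transformed cells only.

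The strongest site of the whole cluster lay 4984 bp before that start, at chr18:61549849-61550273, with a mean of 3.31 scaled pileup over the 10 libraries and a peak in each of them. FOS stood at 5.64 in non-transformed and 4.12 in transformed cells, JUN at 1.58 and 3.03, and JUNB at 4.25 and 4.19. NFKB1 went from 1.45 to 4.44, its highest value of the cluster in transformed cells, and STAT3 from 1.46 to 2.90. FOS was thus lower in transformed cells while JUN, NFKB1 and STAT3 were higher and JUNB was of like height.

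The 10 sites with the highest mean over the 10 libraries had FOS and JUN peaks in both states, and their means ran from 1.61 to 3.31. FOS was lower in transformed cells at 8 of the 10, with a median ratio of 0.737 (0.656 to 1.41), where it was 1.17 over all 46 sites with FOS in both states, and JUN was higher at 10 of 10, with a median ratio of 1.57 (1.04 to 3.75). Among the 16572 sites of the series at least as strong, FOS was lower at 68.5% with a median of 0.828, and JUN was higher at 92% with a median of 1.51, so the strong sites of the cluster stood near those of the series. JUNB was higher at 6 of the 10, where 54.4% of such sites of the series were (median 1.11, against 1.05). STAT3 had peaks in both states at 6 of the 10 and was higher at 5 of these, where 92.1% of such sites were (median 1.98, against 2.03). NFKB1 had peaks in both states at 3 of the 10 and was higher at all 3, where 66.4% of such sites were (median 1.36, against 1.17). The ranking itself uses these values.

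FOS was lower in transformed cells at chr18:61272049-61272411, 128 kb after the SERPINB5 start, at 4.94 and 3.44 in the 2 states, with JUN at 1.51 and 2.76 and JUNB at 2.94 and 3.68. The site chr18:61442382-61442743, 22.6 kb after the SERPINB7 start used, lies by its spacing next to the second SERPINB7 start. FOS stood there at 4.51 and 3.35, JUN at 1.32 and 2.17, JUNB at 3.60 and 4.19 and STAT3 at 0.732 and 1.90. At chr18:61455708-61456258, 35.9 kb after the SERPINB7 start used, FOS stood at 4.14 and 3.12. JUNB stood there at 4.47 and 4.19, the former being the highest JUNB value of the cluster. At chr18:61637105-61637443, 82.3 kb after the SERPINB2 start, FOS stood at 3.49 and 2.49 and JUNB at 3.05 and 1.84. This site lies 493.1 kb after the SERPINB5 start. In GRCh38 the promoters of SERPINB5 and SERPINB8 end at 63476957 and 63970080. By that spacing the site lies next to the SERPINB8 start, which was not placed in hg19. NFKB1 and STAT3 had peaks in transformed cells at all 4 of these sites, of 0.930 to 1.76 for NFKB1 and 1.23 to 1.90 for STAT3.

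**Figure D4:**
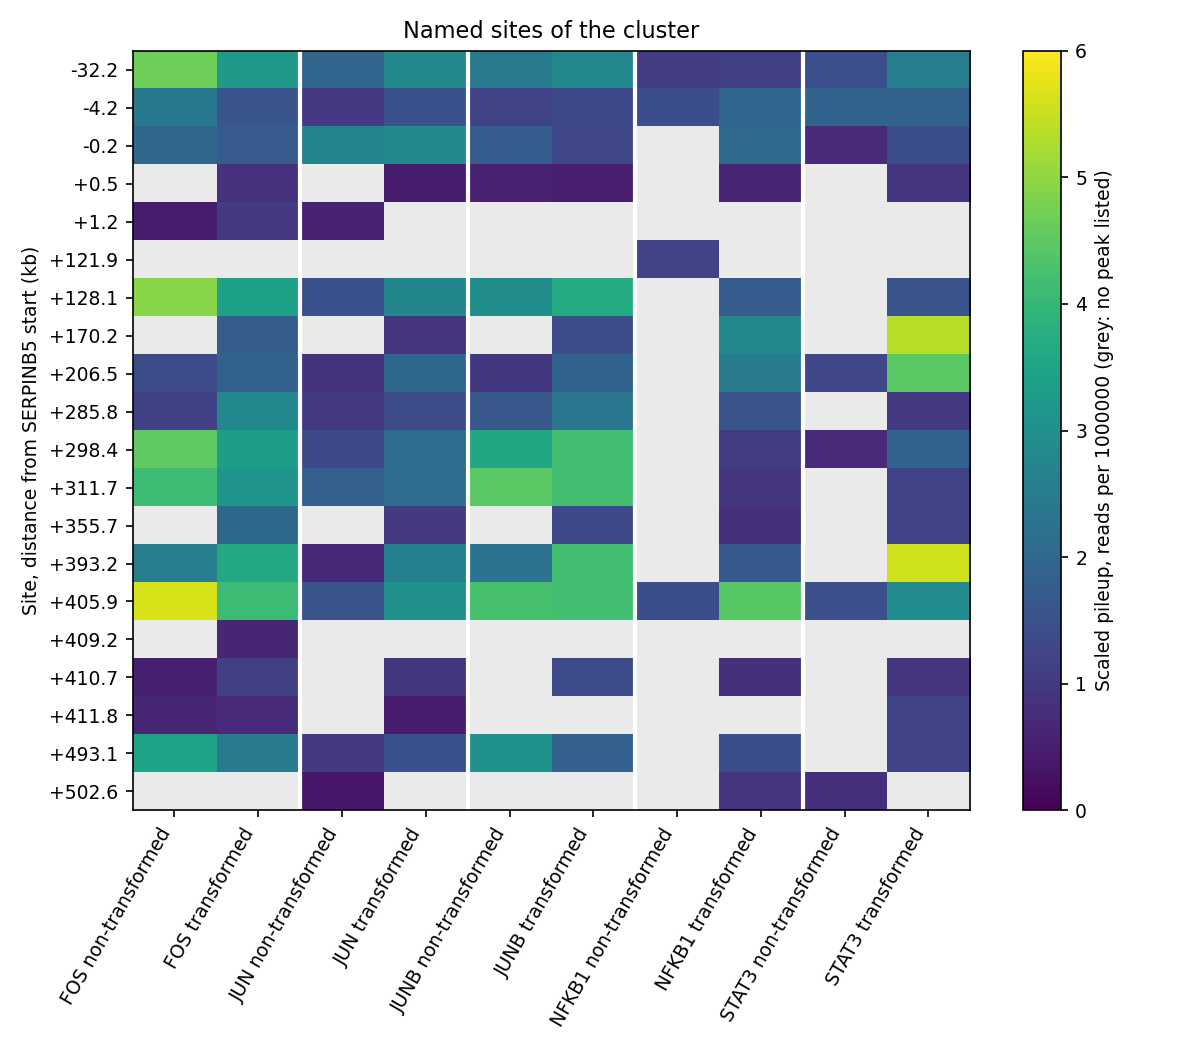
Scaled pileup (reads per 1000000 filtered reads) at 20 sites of the cluster (rows, by distance from the SERPINB5 start in kb) in the 10 libraries (columns), with grey where no peak was listed. The NFKB1 column of non-transformed cells is grey at 16 of the 20 sites, and the 2 highest STAT3 values, 5.35 and 5.58, stand in rows that are grey in the STAT3 column of non-transformed cells.

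Most of the highest STAT3 values of the cluster stood at sites without a STAT3 peak before transformation. At 9 of the 56 sites with a STAT3 peak in transformed cells it reached 3 scaled pileup or more (16.1%, 8.69 to 27.8%, against 17.4% in the series), a limit chosen after the values were seen. Of these 9 sites, 7 lacked a STAT3 peak in the non-transformed state (77.8%, 45.3 to 93.7%), whereas 21.6% of the 13452 such sites of the series had none. Most of the 7 lie in a single stretch of 44.7 kb, described below and picked out after its values were seen. By spacing it holds the starts of the close paralogs SERPINB4 and SERPINB3. Its sites may thus not be independent, and the interval can be too narrow. With limits of 2 and 4 STAT3 reached the limit at 16 (28.6%, against 30.3% in the series) and 4 sites (7.14%, against 10.7%), and 12 of the 16 (against 30.9%) and 3 of the 4 (against 15.3%) lacked a STAT3 peak before. An AP-1 peak in non-transformed cells was present at 6 of the 9 sites, against 89.2% in the series, and all 9 had one in transformed cells.

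The highest of them was chr18:61537069-61537451, 17.7 kb before the SERPINB2 start, where STAT3 stood at 5.58 scaled pileup in transformed cells, with no peak in non-transformed cells, and 4.98% of the peaks in the STAT3 list of transformed cells were higher. FOS stood at 2.58 and 3.62, JUN at 0.694 and 2.60 and JUNB at 2.29 and 4.19, all higher in transformed cells, and NFKB1 had a peak of 1.65 in transformed cells only. The JUN ratio of 3.75 was the largest for JUN in the cluster.

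Next came a stretch of 44.7 kb between the SERPINB5 and SERPINB7 starts, chr18:61306165-61350823, which was picked out after its values were seen and so has no comparison. The SERPINB4 and SERPINB3 starts lie next to 63644257 and 63661894 in GRCh38. By their spacing from the SERPINB5 start, both fall within this stretch, though neither was placed in hg19. The stretch holds 12 sites, of which STAT3 had peaks at 10 in transformed cells (0.558 to 5.35, median 3.51) and at 1 in non-transformed cells (1.28). Over the whole cluster, STAT3 was the highest of the 5 proteins in transformed cells at 31 of the 56 sites with a STAT3 peak (55.4%, against 55.1% in the series). FOS had peaks at 5 of the 12 sites in non-transformed and 11 in transformed cells, up to 1.86, JUN at 2 and 5, JUNB at 3 and 6, and NFKB1 at 0 and 7.

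One site of this stretch, chr18:61314187-61314577, 170 kb after the SERPINB5 start, had no peak of any protein in non-transformed cells and peaks of all 5 in transformed cells. STAT3 stood at 5.35 scaled pileup, NFKB1 at 2.79, FOS at 1.77, JUNB at 1.40 and JUN at 0.921. The end of the stretch, chr18:61350443-61350823, had STAT3 at 1.28 and 4.46 in the 2 states, the largest STAT3 ratio of the cluster, 3.48. FOS stood there at 1.40 and 1.86, JUN at 0.883 and 2.0 and JUNB at 0.981 and 1.90, and NFKB1 had 2.48 in transformed cells only.

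Only 1 other site of the cluster had peaks of all 5 proteins in transformed cells and of none in non-transformed cells. It was chr18:61499729-61500148, 55.1 kb before the SERPINB2 start, and there FOS was the highest at 1.99, followed by JUNB at 1.33, STAT3 at 1.23, JUN at 1.03 and NFKB1 at 0.827. The order of the heights at these 2 sites was thus different, with STAT3 first at one and FOS first at the other. The rest of the order depends on the measure. By the share of peaks higher in its own list, JUN (28.6%) came before JUNB (32.3%) and STAT3 (47.3%) at chr18:61499729-61500148.

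NFKB1 had 7 peaks in the cluster in non-transformed cells, in the shallowest library. The highest, chosen after its values were seen, was at chr18:61637582-61638034, next to the site 82.3 kb after the SERPINB2 start. It lies 493.7 kb after the SERPINB5 start and so, by spacing, also next to the SERPINB8 start, which was not placed in hg19. NFKB1 had 22 reads or 4.55 scaled pileup there in non-transformed and 28 reads or 2.89 in transformed cells. The other proteins were low at this site, with FOS at 0.698 and 0.453, STAT3 at 0.640 and 0.669, JUN at 0.434 in transformed cells and JUNB at 0.545 in non-transformed cells. It was thus a site led by NFKB1 in both states.

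STAT3 and NFKB1 sites with a peak in non-transformed cells only were few. The 1 lost NFKB1 site, chr18:61265904-61266204, had 1.24 scaled pileup and no peak of another protein. The 1 lost STAT3 site, chr18:61646597-61647220, had STAT3 at 0.823 and JUN at 0.378 in non-transformed cells and NFKB1 at 0.930 in transformed cells. The last of the 4 sites with a peak in every library, chr18:61242897-61243290, had like values in both states, with FOS at 1.67 and 1.58, JUN at 1.39 and 1.46, JUNB at 1.09 and 1.08, NFKB1 at 1.45 and 1.24 and STAT3 at 1.19 and 1.45.

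Between the gene starts the gain of STAT3 peaks was spread over the cluster. From the SERPINB5 to the SERPINB7 start, a distance of 276 kb with 40 sites, STAT3 had peaks at 2 sites in non-transformed and 22 in transformed cells. From the SERPINB7 to the SERPINB2 start (135 kb, 32 sites) it had 2 and 12, and from the SERPINB2 start to the end of the stretch (125 kb, 18 sites) 4 and 10. NFKB1 had 2 and 21, 1 and 13, and 2 and 8 in the same intervals. FOS had 17 and 30, 17 and 24, and 7 and 12, and its highest value stood between the SERPINB7 and SERPINB2 starts in each state (5.64 and 4.12).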

How the data were processed

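ChIP-seq of 5 proteins in 2 states of MCF10A-ER-Src cells was used, with 1 library for each. The authors aligned reads to hg19 (Bowtie, per the labels) and called peaks in each library with MACS 2.0.10.20131216 on unique 36 bp reads, without a control library, at a q-value cutoff of 0.05, with at most 1 read per position. In the deposited lists the pileup is a signal in reads at the summit, extended to 114 to 150 bp and not scaled for depth. The deposited −log10 p and q values and the fold enrichment, a ratio over local background, are as MACS wrote them. Here the pileup was divided by the filtered reads of its library and multiplied by 1000000 (scaled pileup). The lists hold only peaks above a threshold, so a library without a peak is not a library without reads. The lowest listed pileup was 4 or 5 reads, or 0.226 (FOS, transformed) to 0.827 (NFKB1, non-transformed) as scaled pileup.

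Sites were built from the peaks of chromosomes 1 to 22 and X, with summits extended by 150 bp on each side and merged on an overlap of 1 bp. Samples were grouped by their labels. Shares have Wilson 95% intervals. No test was made between states. Sites named are the 10 highest by mean over the libraries (no peak as 0), the nearest to each gene start and all within 2 kb, those with all 5 proteins in transformed cells and none in non-transformed cells, and lost STAT3 or NFKB1 sites. The genes and lists were chosen with earlier results of these data known. The reference at hand is GRCh38 (on chromosome 1 the last peak ends at 249200747, past its 248956422 bp), so no coordinate was converted and no sequence of a site was read. Promoters come from RefSeq (GRCh38.p14). The site code was tested on simulated data. Alternatives were a −log10 q of at least 10, a common floor of 0.827 scaled pileup, 50 bp windows, whole peaks, an overlap of 150 bp, fold enrichment in place of pileup, and ratios centred on the series median. Python 3.11.15 with numpy 2.4.6, pandas 2.3.3, scipy 1.17.1 and matplotlib 3.10.9 was used.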

Additional observations from a re-analysis of the deposited data

Results flagged for a closer look

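At the 10 strongest sites of the cluster, FOS and JUN went in opposite directions on transformation. The median ratio of scaled pileup, transformed over non-transformed, was 0.737 for FOS and 1.57 for JUN. With 1 library per protein and state this difference was not tested, and FOS was not lower at every site (8 of 10). The sites were ranked by a mean that includes the FOS values of non-transformed cells. Over all 46 sites of the cluster with FOS peaks in both states the median FOS ratio was 1.17, with 26 sites above 1 and 20 below, the same direction as JUN (1.40). The opposite directions were also seen over the sites of the series at least as strong, with medians of 0.828 and 1.51.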

How the results depend on the processing

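Of 90 values under alternatives, 63 stayed within the interval (shares) or within 1.5 times of the value given (counts and median ratios), 27 moved and 0 changed direction. With −log10 q of at least 10 the cluster had 65 sites, and the peaks were 31 for FOS in non-transformed cells, 12 and 33 for JUN in non-transformed and transformed cells, 11 and 30 for JUNB, 1 and 22 for NFKB1, and 5 and 26 for STAT3. The gained share was then 64.7% for JUN, 63.3% for JUNB and 95.5% for NFKB1, and the lost share was 0% for JUNB, NFKB1 and STAT3 (of 30, 22 and 26 sites). Divided by the median over all sites of the series, the median STAT3 ratio was 1.02 in place of 1.74. With the common floor in scaled pileup there were 67 sites, with 27 and 41 peaks for FOS, 12 and 28 for JUN, 30 for JUNB in transformed cells, 35 for NFKB1 in transformed cells and 6 for STAT3 in non-transformed cells. The gained share of STAT3 was then 86.4% and its lost share 0% (of 44 sites). Series-wide shares are not given for these settings. Whether the STAT3 shares of the cluster depart from the series there is thus not shown. The stricter q-value and the floor keep fewer peaks by construction. Without the NFKB1 library of non-transformed cells, an alternative chosen after seeing the data, 103 sites remained in the cluster and 27.2% had all 5 proteins in transformed cells. No paired analysis was possible because each protein and state has 1 library, and for the same reason no replicate could be left out.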
